A study of Mus musculus with 10 samples.

Results

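Stretches of mouse liver chromatin in which many H3K27Ac peaks lie close together were followed from fresh frozen tissue into formalin-fixed, paraffin-embedded (FFPE) tissue. They were chosen by measured values, the peaks of the fresh frozen list themselves. Neighbouring peaks on chromosomes 1 to 19 were stitched into 1 region wherever the gap between them was at most 12.5 kb, and regions with 8 or more peaks were kept as clusters. This gave 688 clusters of 19007 stitched regions (3.62%). They held 7252 of the 47238 fresh frozen peaks (15.4%) and spanned 24.4 Mb of the mouse build mm9. The peak numbers, positions and fresh frozen covered shares of the clusters follow from this choice and are given as a description.

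H3K27Ac, an acetylated lysine in the tail of histone H3, is laid down by the acetyltransferases p300 and CBP at active promoters and enhancers. Enhancers that lie close together and carry much of this mark are often treated as 1 unit, a super-enhancer or stretch enhancer, and in many tissues such units lie near genes that define the cell type. H3K4me2, a dimethylated lysine of the same tail, marks promoters and enhancers whether or not they are acetylated. Hepatocytes make up most of the mass of the liver. The lists come from bulk tissue, so a site marked weakly in many cells and one marked strongly in few cannot be told apart.

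The material was normal mouse liver in full sections. The control was 1 H3K27Ac library of fresh frozen tissue that was crosslinked for the immunoprecipitation, and the series calls it matched without saying whether both tissues came from the same animal. Of the FFPE libraries, 6 were H3K27Ac libraries made with FiTAc-seq, which heats the sections in detergent buffer and then sonicates them: 1 at 50 °C with 5 min of sonication, 1 at 50 °C with 40 min, 2 at 65 °C with 5 min, 1 at 65 °C with 40 min and 1 at 80 °C with 40 min. The older proteinase K protocol, FiT-seq, gave 1 H3K27Ac and 1 H3K4me2 library, and an FFPE input was not analysed here. The labels used here give no strain, age or sex of the mice. Nothing says whether the pair at 65 °C/5 min came from separate animals or blocks, so its spread may be technical. All other conditions had 1 library, and no test between conditions was run. Read depth is unknown, and its part in the number and width of peaks was not tested.

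The lists of the 5 FiTAc-seq libraries at 50 °C and 65 °C were long, with 38099 to 64465 peaks on chromosomes 1 to 19. The H3K4me2 list held 11616, the 80 °C list 55 and the FiT-seq H3K27Ac list 112. Genes near the clusters are not named, because no annotation of mm9 was used, and the liver label was not checked against marker genes.

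A typical cluster was a string of narrow fresh frozen peaks, with many short gaps and some of several kb. The clusters were 6254 to 102752 bp long, with a median of 33294 bp, and held 8 to 30 peaks, with a median of 9. Of the 688 clusters, 446 held 8 to 10 peaks, 77 held 15 or more and 15 held 20 or more. The gaps had a median of 718 bp and an upper quartile of 6048 bp. Most peaks thus had a near neighbour, while the gaps above the upper quartile made up much of the length. Peaks covered a median of 13.0% of a cluster in the fresh frozen list, with a range of 5.20% to 51.0%. The peaks of clusters were ordinary peaks of their list. Their median width was 349 bp against 346 bp outside clusters, and their median −log10 q-value, the authors' score of a peak, was 10.3 against 9.70. Peaks in the highest quartile of scores made up 22.3% of cluster peaks and 25.5% of the others. The choice by number of peaks therefore did not pick out the highest peaks of the list.

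Just inside the threshold, the 211 clusters with exactly 8 peaks had a median length of 24907 bp and a median fresh frozen covered share of 13.6%. Just outside it, the 303 regions with 7 peaks had a median length of 21807 bp and a covered share of 13.1%. The same regions had median covered shares of 27.4% and 25.4% in the first and second FFPE library at 65 °C/5 min for 7 peaks, and of 30.6% and 27.1% for 8 peaks. The threshold thus cut through a continuous range of regions. Clusters lay on every chromosome from 1 to 19. Their share of the stitched regions was lowest on chromosome 2, at 2.38%, and highest on chromosome 11, at 5.05% with 65 clusters.

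Fresh frozen peaks in clusters were met by FFPE H3K27Ac peaks more often than those elsewhere. A peak counted as met when a peak of the other list overlapped it by at least 1 bp. At 65 °C/5 min, 86.0% and 84.3% of cluster peaks were met by the first and the second library, against 71.0% and 68.1% of the peaks outside clusters and a background over all fresh frozen peaks of 73.3% and 70.6%. The difference between cluster peaks and the others was 15.6 ± 0.848 percentage points (SD, n = 2), so it was much larger than the spread of the pair. The Wilson 95% intervals of the cluster shares were 85.2% to 86.8% and 83.4% to 85.1%. These intervals cover counting error only and treat neighbouring peaks as independent, which they need not be.

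The other long lists gave like differences. At 50 °C/40 min, 87.8% of cluster peaks were met, against 71.0% outside and a background of 73.6%. The values at 65 °C/40 min were 86.8%, 69.8% and 72.4%. The list at 50 °C/5 min met fewer fresh frozen peaks everywhere, 56% in clusters and 42.0% outside, with a background of 44.2%. In each of the 5 long lists, cluster peaks were thus met 14 to 17 points more often than those outside. The gap was wider against the 7546 fresh frozen peaks that stood alone in their region. Of these, 54.7% and 50.3% were met by the pair, and 29.5% at 50 °C/5 min.

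**Figure D1:**
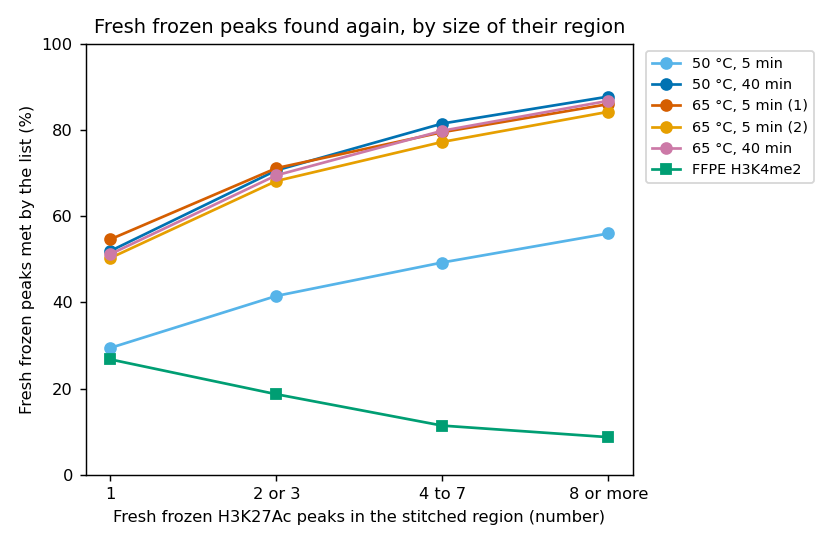
Share of fresh frozen peaks (%) met by each long FiTAc-seq list and by the FFPE H3K4me2 list, for peaks in stitched regions grouped by their number of fresh frozen peaks, with 1 point per list and group. The H3K27Ac lists met more peaks in regions with more peaks, up to 84.3% to 87.8% in clusters for 4 of the 5 lists, while H3K4me2 fell from 26.8% of single peaks to 8.74% of cluster peaks.

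In the pair, the difference was larger among low peaks, while high peaks were nearly all met and left little room for one. Fresh frozen peaks were split into quartile groups by their score over the whole list. In the lowest quartile, 72.7% of cluster peaks and 45.5% of other peaks were met by the first library at 65 °C/5 min, and 69.6% and 40.6% by the second. In the third quartile the shares were 90.6% and 80.7%, and 88.5% and 77.4%. In the highest quartile, the corresponding shares were 97.3% and 96.5%, and 97.3% and 95.8%. A high fresh frozen peak was thus met nearly always by the pair, wherever it lay, while a low one was met more often inside a cluster. The list at 50 °C/5 min met 83.1% of cluster peaks and 80.2% of other peaks in the highest quartile. In the third quartile it met 60.4% and 44.0%. There too the difference was small among high peaks, although more of them were left unmet. By width, the narrowest quartile of peaks was met by the first library in 72.4% of cases in clusters and 46.9% outside.

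The difference was also present at each spacing of the peaks. Among fresh frozen peaks with their nearest neighbour within 500 bp, 88.5% were met in clusters and 79.5% outside by the first library at 65 °C/5 min, and 87.3% and 77.0% by the second. With the neighbour at 500 to 2000 bp, the shares were 87.5% and 68.3%, and 84.5% and 67.0%. With the neighbour at 2 to 12.5 kb, they were 74.3% and 63.8%, and 71.2% and 59.7%. Cluster peaks were thus met more often at each of these distances, and the difference was 9.06 to 19.2 points over the pair.

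Read by single peaks, 54.2% of the cluster peaks were met by all 5 long lists, against 39.3% of the peaks outside. Another 24.7% of cluster peaks were met by 4 of the 5. Only 6.51% of cluster peaks were met by none, against 18.0% outside. Read by clusters, the median share of peaks met per cluster was 91.7% at 50 °C/40 min and 55.6% at 50 °C/5 min. Every peak was met in 277 and 255 clusters at 65 °C/5 min, in 299 at 50 °C/40 min, in 279 at 65 °C/40 min and in 43 at 50 °C/5 min. In 31 clusters all peaks were met by all 5 lists.

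In 4 of the 5 long lists, FFPE peaks covered more of the median cluster than the fresh frozen peaks did. The median covered share was 31.5% and 28.6% in the pair at 65 °C/5 min, a mean of 30.0% ± 2.05 (SD, n = 2), against 13.0% in the fresh frozen list. It was 28.2% at 50 °C/40 min, 26.4% at 65 °C/40 min, and 11.6% at 50 °C/5 min. The list at 50 °C/5 min was below the fresh frozen list at the median cluster, though not over all cluster bases, where it covered 14.04% against 12.7%. The medians of the other 4 lay between 26.4% and 31.5%. The pair's mean exceeded the fresh frozen share in 636 of 688 clusters. In 39 clusters both libraries of the pair covered less than the fresh frozen list did. On all of chromosomes 1 to 19, the fresh frozen list covered 20.1 Mb and these 4 FFPE lists 34.2 to 43.7 Mb. In regions of 2 or 3 peaks, the median covered share was higher than in clusters in these 4 lists, at 34.7% to 43.8%. At 50 °C/5 min it was lower there, at 6.97%. Regions of 4 to 7 peaks had lower medians than clusters in all 5 long lists, at 21.6% to 25.6% in these 4 and 8.91% at 50 °C/5 min. Wide FFPE cover as such was thus also found in regions of 2 or 3 peaks. Their lengths and fresh frozen shares are not given here, so these medians do not compare cover at a like fresh frozen share.

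**Figure D2:**
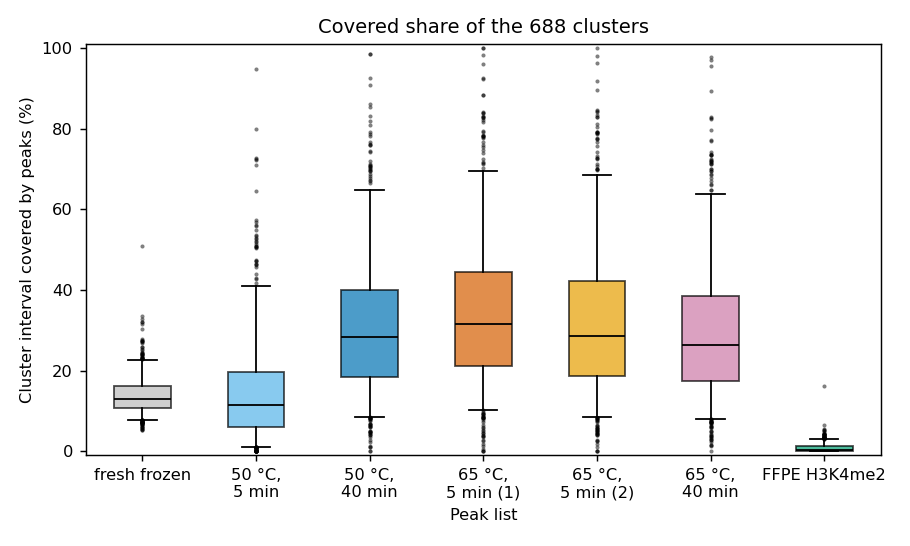
Share of each cluster's length covered by peaks (%) in the fresh frozen list, the 5 long FiTAc-seq lists and the FFPE H3K4me2 list, over 688 clusters; the line is the median, boxes run between quartiles and whiskers from the 5th to the 95th percentile. Medians at 50 °C with 40 min and at 65 °C lie between 26.4% and 31.5%, above those of fresh frozen liver and of 50 °C with 5 min, and H3K4me2 lies near 0.

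A cover of at least 1.5 times the fresh frozen share was reached by 80.1% and 77.3% of the clusters in the first and second library at 65 °C/5 min. The background for this count was 7796 stitched regions of 2 or more peaks whose fresh frozen share left room for it, of which 42.5% and 37.9% reached it. At 50 °C/40 min the share of clusters was 75.6%, with a background of 33.5%. At 65 °C/40 min it was 71.9%, with a background of 30.8%, and at 50 °C/5 min 22.5%, with a background of 8.86%. Regions of 4 to 7 peaks lay in between, with 56.2% and 50.4% in the pair. Because the fresh frozen share enters this ratio and the clusters were chosen on fresh frozen peaks, these counts are a description. Both libraries of the pair reached 1.5 times in 521 clusters, and all 5 long lists did in 151.

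By construction, any FFPE cover beyond that of fresh frozen liver lies in the gaps between fresh frozen peaks. Of the bases under fresh frozen peaks in clusters, 85.4% and 83.6% were covered by the pair, 86.2% at 50 °C/40 min, 85.0% at 65 °C/40 min and 50.6% at 50 °C/5 min. Of the gap bases, 24.6% and 22.4% were covered by the pair, 20.6% at 50 °C/40 min, 19.4% at 65 °C/40 min and 8.71% at 50 °C/5 min. Only 33.6% and 35.2% of the bases that the pair covered in clusters lay on a fresh frozen peak.

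The gap cover lay close to the fresh frozen peaks. Within 250 bp of a peak edge, 67.7% and 63.9% of gap bases were covered by the pair. At 4 to 6.25 kb from the nearest peak, 6.80% and 5.35% were covered, which is close to the 6.28% and 5.46% in the 12.5 kb beside the clusters. These flanks hold no fresh frozen peak by construction. Their value is a mean over the whole 12.5 kb, including bases right beside the outermost peak, so the distances compared are not alike. The list at 50 °C/5 min fell from 26.1% to 1.85% over the same distances, with 1.91% in the flanks. The H3K27Ac cover in FFPE liver was thus graded within a cluster. Whether the middle of the longest gaps matched the flanks at like distance was not tested.

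**Figure D3:**
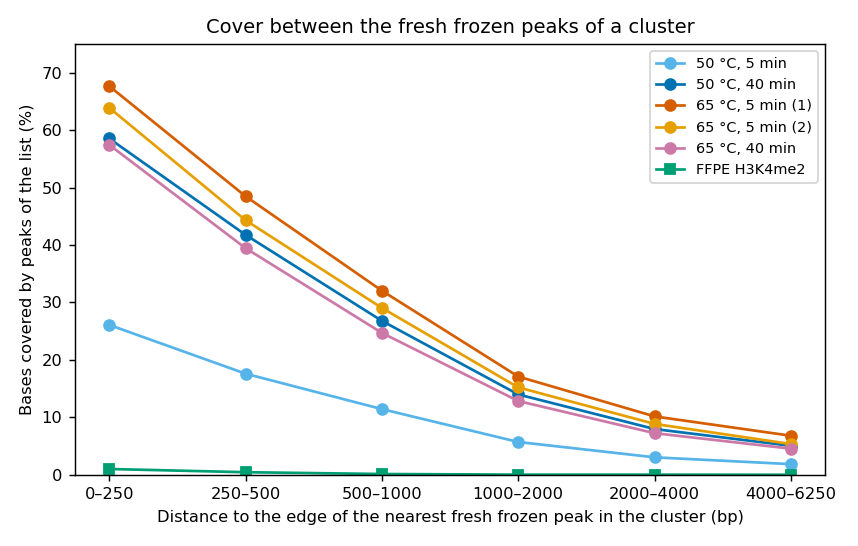
Share of gap bases in the clusters that peaks of each list cover (%), against the distance (bp) to the edge of the nearest fresh frozen peak of the cluster, with 1 point per list and distance range. All 5 FiTAc-seq lists fall with distance, from 67.7% to 6.80% in the first library at 65 °C with 5 min and from 26.1% to 1.85% at 50 °C with 5 min.

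Peaks of the 5 long FiTAc-seq lists were wider in clusters than elsewhere, which the fresh frozen peaks were not. The clusters were chosen by the number of separate fresh frozen peaks, and what this choice did to fresh frozen widths was not tested. The contrast between the tissues is thus a description. The median width was 442 and 434 bp in clusters against 344 and 343 bp outside in the pair. It was 404 against 321 bp at 50 °C/40 min, 390 against 305 bp at 65 °C/40 min, and 313 against 281 bp at 50 °C/5 min. Some FFPE peaks joined several fresh frozen peaks. Of the pair's peaks in clusters, 19.2% and 18.6% lay on 2 or more fresh frozen peaks, against 11% at both temperatures with 40 min and 7.22% at 50 °C/5 min. Shares outside clusters are not given here. The choice of regions with many fresh frozen peaks favours joining, so these shares are a description. Lists of 40 min were also split at shorter gaps, as given below. The most fresh frozen peaks under 1 FFPE peak was 11, in the second library at 65 °C/5 min. The widest FFPE peak that met a cluster was 25.3 kb long.

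Peak numbers gave another order of the conditions than cover. The clusters were met by 8093 and 7920 peaks of the pair, 1.10 ± 0.0169 times the fresh frozen number (SD, n = 2). The number was 10038 at 50 °C/40 min, 9925 at 65 °C/40 min and 6843 at 50 °C/5 min. As called, lists of 40 min thus held the most peaks and the pair the widest. The pair's ratio fell below 1, to 0.902, when peaks within 500 bp were merged, to 0.955 with a −log10 q-value of at least 5, to 0.964 with the 30000 highest peaks of each list, and to 0.727 with a stitching gap of 5000 bp. The excess of peaks at 65 °C with 40 min over the pair, 1.24-fold, shrank to 1.04-fold on merging. Merging was done before stitching and left 159 clusters, so both the peaks and the clusters differ there. With only gaps of up to 76 bp closed and the clusters kept, the pair's ratio to fresh frozen was 1.10 and that of 40 min to the pair 1.06. The shortest gap between fresh frozen peaks in clusters was 76 bp, while both 40 min lists held shorter ones. A finer split of peaks thus went with 40 min of sonication, and these cannot be told apart in peak number, width or joining.

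The clusters took a larger share of the covered bases in FFPE than in fresh frozen liver. Clusters held 15.4% of all bases covered by fresh frozen peaks, 18.0% and 18.5% of those of the pair, 19.6% at 50 °C/40 min, 19.8% at 65 °C/40 min and 20.03% at 50 °C/5 min. By number of peaks the lists did not all go the same way. Clusters held 15.4% of fresh frozen peaks and less of those of the pair, 13.6% and 14.2%. They held slightly more with 40 min, 15.6% and 15.7% at 50 °C and 65 °C, and 18.0% at 50 °C with 5 min.

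Stitching the FFPE lists in the same way recovered most clusters among many more regions. Regions of 8 or more peaks numbered 1901 and 1748 in the pair, 2245 at 50 °C/40 min, 2152 at 65 °C/40 min and 1047 at 50 °C/5 min. Such a region met 79.7% and 76.9% of the clusters in the pair, 89.8% at 50 °C/40 min, 86.5% at 65 °C/40 min and 57.0% at 50 °C/5 min. Of the regions themselves, 28.8% and 30.3% met a cluster in the pair, and 37.5% at 50 °C/5 min. Peak density alone in an FFPE list therefore picked many regions with fewer than 8 fresh frozen peaks. Since longer lists give more such regions, these shares cannot be read as an order of the conditions.

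Between conditions, sonication time went with cover at 50 °C. The median covered share was 16.6 points higher with 40 min than with 5 min, 28.2% against 11.6%, and it was higher in 670 clusters and lower in 18. With 1 library each, this difference has no replicate check of its own, but it was far above the SD of 2.05 points of the pair at 65 °C. At 65 °C the sign was the opposite. The median with 40 min was 3.63 points below the mean of the pair, against an SD of 2.05. The library with 40 min lay below both of the pair in 441 clusters and above both in 138. This difference was −1.60 points, under the spread of the pair, when peaks within 500 bp were merged, and −2.18 points without the first library of the pair. The whole lists moved in the same directions. On chromosomes 1 to 19 they covered 17.1 Mb with 5 min and 35.9 Mb with 40 min at 50 °C. At 65 °C they covered a mean of 41.7 Mb in the pair and 34.2 Mb with 40 min. These changes were thus not particular to clusters.

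Temperature went with cover at the short sonication. At 5 min, the mean of the pair at 65 °C was 18.4 points above 50 °C and was higher in 685 clusters, with the other 3 equal. The list at 50 °C lay below both libraries of the pair in 682 clusters. Over all of chromosomes 1 to 19 it covered 17.1 Mb, against 43.7 and 39.7 Mb in the pair. At 40 min, 65 °C was 1.85 points below 50 °C, which is less than the SD of the pair. The list at 50 °C/5 min was also the shortest of the 5, with 38099 peaks. With the 30000 highest peaks of each list, the difference was 16.2 points. This setting evens out peak number but not peak width or read depth. What part list length or depth has in the low cover at 50 °C/5 min was thus not tested.

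Clusters kept their order between libraries more closely than between tissues. Across the 688 clusters, Spearman's rho of the covered shares was 0.985 between the libraries of the pair and 0.984 between both temperatures at 40 min. It was 0.913 between the first library of the pair and 65 °C with 40 min, and 0.819 between it and 50 °C with 5 min. The lowest values between FFPE lists were 0.698 and 0.682, for 50 °C/5 min with 40 min at 50 °C and at 65 °C. Between fresh frozen liver and the first library it was 0.516, and over the 5 long lists it ran from 0.369 to 0.578. Fresh frozen shares spread less, with quartiles of 10.6% and 16.1% against 21.1% and 44.5% in the first library. The part of this narrower range was not tested. Lists share cluster lengths and peak spacing, so these values are a description. The first library covered 2.89 points more than the second at the median and more in 539 clusters, yet 683 clusters differed by no more than 10 points, and the median SD of a cluster was 1.54 points. Cover in the first library was weakly related to peaks per 10 kb (rho = 0.431), and hardly to the number of peaks (rho = 0.0712) or the median score of a cluster (rho = 0.112).

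**Figure D4:**
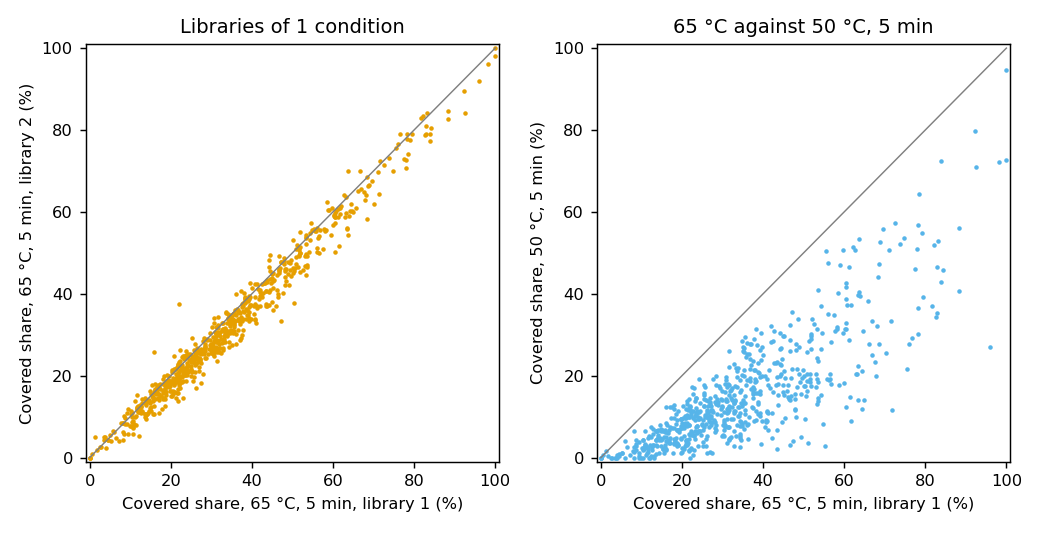
Covered share (%) of each of the 688 clusters in the first library at 65 °C with 5 min on the horizontal axes, with the second library (left) or 50 °C with 5 min (right) on the vertical axes, 1 point per cluster and the line of equal values. The pair stays near the line, with rho = 0.985, while 2 clusters lie above it in the comparison with 50 °C.

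The clusters with the most fresh frozen peaks differed widely among themselves. The cluster with 30 peaks lay at chr8:73108346-73204039. Its covered share was 12.2% in fresh frozen liver, 14.2% at 50 °C/5 min, 22.7% at 50 °C/40 min, 30.9% and 30.6% in the pair and 23.4% at 65 °C/40 min. Of its 30 peaks, 20, 28, 29, 29 and 28 were met by these 5 lists in turn, and 1 by H3K4me2. It thus stood close to the median cluster in cover.

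The cluster at chr1:74034856-74137607, with 27 peaks, was the longest of all. Its covered share was 9.90% in fresh frozen liver and 40.9%, 44.2%, 53.4%, 54.4% and 39.6% in the 5 long lists, taken in the same order. All 5 FFPE lists were far above the fresh frozen value, including 50 °C with 5 min, and it held no H3K4me2 peak. The stretch from 10 to 50 kb after its start was singled out after its values were seen. There, 10 fresh frozen peaks covered 9.25%, while the pair covered 86.7% and 84.3% and the list at 50 °C/5 min 74.0%.

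Of the other clusters among the 10 with the most peaks, the 25 peaks at chr6:108377265-108469890 had the least met apart from the cluster on chromosome 9 described last. The lists met 6, 14, 17, 13 and 16 of them, and covered 6.74%, 18.3%, 18.9%, 17.5% and 16.3% against 9.82% in fresh frozen liver. The 24 peaks at chr1:135122272-135207449 were covered by 43.8% and 37.0% in the pair, a wide gap between the libraries, against 10.9% in fresh frozen liver. In the 22 peaks at chr11:120318645-120411515, all 22 were met by both of the pair, and 7 H3K4me2 peaks were found there. The cluster with 22 peaks at chr18:46756520-46829077 showed the highest cover at 65 °C/40 min, 37.7%, above the 34.9% and 33.4% of the pair. Clusters at chr19:4000294-4071209 and chr7:20368951-20428537, with 21 peaks each, and at chr6:114813337-114904496, with 20, had covered shares of 26.5% to 43.4% in the pair.

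The most fully covered clusters were short and held 8 fresh frozen peaks each. At chr5:143576960-143583213, the shortest cluster, fresh frozen peaks covered 51.0%, the 50 °C list of 5 min 94.7%, and the pair 100% in each library with a single peak. At chr15:58817437-58836315 the fresh frozen share was 18.6%, and the pair covered 100% and 98.1% with 1 and 3 peaks, while 15 peaks at 50 °C/5 min covered 72.6%. A second cluster on the same chromosome, at chr15:58867746-58880755, was covered by 22.0% in fresh frozen liver and by 98.2% and 96.2% in the pair. None of these clusters held an H3K4me2 peak. In all, 111 clusters were covered by 50% or more in both of the pair, and 22 in all 5 lists. Their 4.16 peaks per 10 kb and length of 22820 bp (medians over the 111) compare with 3.03 and 33294 bp over all clusters, and 39 of them (35.1%) held an H3K4me2 peak, against 54.1% of all clusters.

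At the other end, 3 clusters had no base covered in either library of the pair. They lay at chr14:66334537-66361040 with 12 fresh frozen peaks, chr7:105532357-105567239 with 9 and chr15:6167786-6192692 with 8. Their fresh frozen shares were 17.1%, 7.56% and 9.09%. None was covered at 50 °C/5 min, while the lists of 40 min covered 2.71% and 1.31% of the first, 0.97% and 1.51% of the second and 1.19% and 1.48% of the third. A cluster at chr4:60671066-60694506 with 8 peaks was met at 1 peak by each list of 5 min and at none by those of 40 min. In all, 17 clusters had fewer than 50% of their peaks met in both of the pair. Their median fresh frozen score was 9.03, against 10.3 over all clusters, and their peaks were spaced much as elsewhere, at 2.91 per 10 kb.

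**Figure D5:**
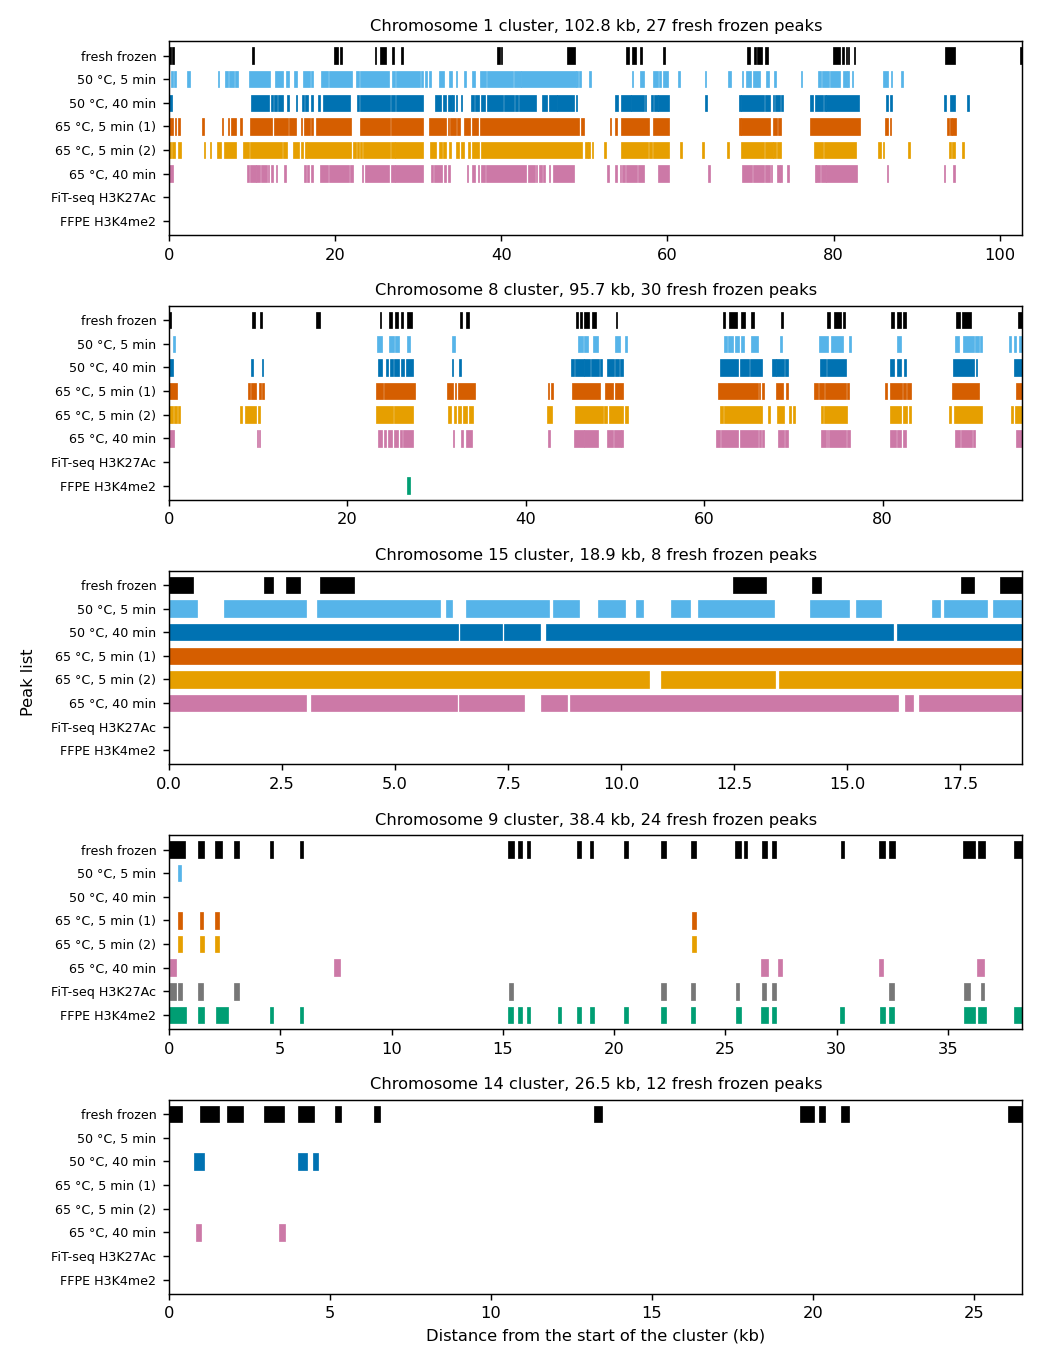
Peaks of each list (bars, 1 row per list) along 5 clusters, against the distance from the cluster start (kb): those with 27 and 30 fresh frozen peaks, a cluster on chromosome 15 that the pair covers by 98.1% or more, that on chromosome 9 and that on chromosome 14 without cover in the pair. FFPE peaks fill gaps of the cluster with 27 peaks and of that on chromosome 15, and the fresh frozen peaks of the last pair have few FiTAc-seq counterparts.

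H3K4me2 in FFPE liver was sparse in the clusters. Its list put 747 of 11616 peaks there, and 372 clusters (54.1%) held at least 1, 192 held 2 or more and 88 held 3 or more. The median covered share was 0.417%, and the mean 0.810%. Regions of 7 peaks had a median of 0.547% and a mean of 0.969%. Regions of 4 to 7 and of 2 or 3 peaks had medians of 0%, with means of 1.30% and 6.25%. Clusters were thus lower than these regions by the mean, but not by the median at 4 to 7 and at 2 or 3 peaks. The share of other regions that held an H3K4me2 peak is not given here. Of the 747 peaks, 666 (89.2%) lay on a fresh frozen H3K27Ac peak. The same share over all 11616 H3K4me2 peaks is not given here, so it cannot be read as a trait of clusters. Within clusters, most peaks of the mark thus lay on fresh frozen H3K27Ac peaks and left the gaps nearly free, with 0.192% of gap bases covered.

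Unlike the H3K27Ac lists, H3K4me2 met cluster peaks less often than the others. It met 8.74% of cluster peaks, with a Wilson 95% interval of 8.11% to 9.41%, against 17.6% outside, a difference of −8.88 points, and a background of 16.3% over all fresh frozen peaks. Of the peaks that stood alone, 26.8% were met. The difference ran in the same direction in each quartile of fresh frozen scores, from −3.06 points in the lowest to −17.5 in the highest, where 23.3% of cluster peaks and 40.8% of the others were met. It was −8.38 points for peaks with a neighbour within 500 bp and −1.06 points for those with the nearest neighbour at 2 to 12.5 kb. Cluster peaks with H3K4me2 were wide and high, with medians of 596.5 bp for width and 23.2 for score, where the rest had 334 bp and 9.67. The highest fresh frozen peak of the cluster was met in 166 clusters (24.1%), close to the 23.3% of cluster peaks met in the highest quartile.

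Clusters with H3K4me2 had somewhat less H3K27Ac cover than those without it, in the pair 29.9% against 34.0% and 26.4% against 31.7% at the median. The fresh frozen shares were 12.4% and 13.7%. At 50 °C/5 min the order was the opposite, 12% against 11.1%. Clusters with the mark were also longer, with a median of 35044 bp against 30617 bp, and the part of length in this difference was not tested. After the cluster on chromosome 9, the clusters most covered by H3K4me2 lay at chr8:73267670-73285588, with 6.59% and 5 peaks, and at chr4:62157336-62186421, with 5.44% and 3 peaks. The pair covered 37.9% and 31.1% of the first and 51.8% and 49.9% of the second, so both marks were present there.

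The cluster at chr9:2999961-3038311 stood apart from the other named clusters. It held 24 fresh frozen peaks with a high median score of 28.8 and a fresh frozen share of 15.8%. The 5 long FiTAc-seq lists covered 0.383%, 0%, 1.75%, 1.86% and 3.85% of it, and met 1, 0, 4, 4 and 4 of its peaks. The H3K4me2 list covered 16.1% and met 22 of its peaks, and 13 of the 15 FiT-seq H3K27Ac peaks in clusters lay there. It thus held many peaks in the fresh frozen list and in both proteinase K lists and was nearly empty in FiTAc-seq. It begins close to the start of the assembled chromosome, and the FFPE input was not analysed here, so whether reads pile up there without an antibody was not tested.

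The short lists held almost nothing of the clusters. At 80 °C/40 min, 11 peaks lay in 10 clusters and met 10 of the 7252 fresh frozen peaks (0.138%, Wilson 95% interval 0.0749% to 0.254%), with a background of 0.104%. FiT-seq H3K27Ac had 15 peaks in 3 clusters and met 13 fresh frozen peaks (0.179%, 0.105% to 0.306%), with a background of 0.0826%. Of these 13, 12 lay in the cluster on chromosome 9. Lists of 55 and 112 peaks could not show a difference between clusters and other regions.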

How the data were processed

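Per the submitters' processing notes, BWA aligned the reads to mm9 and MACS2 called peaks. Tool versions, calling thresholds, any control and the kit of each library are not given in the sources used here. The authors deposited 1 peak list per library, called separately. The lists carry 1 deposited value a peak, taken as −log10 of a q-value from its range and steps. It was used only to describe, rank and filter peaks within a list.

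Fresh frozen peaks on chromosomes 1 to 19 were stitched at gaps of up to 12500 bp, and regions with 8 or more peaks were kept. Covered share is the percentage of a cluster's bases under peaks of a list, peaks met count overlaps of at least 1 bp, and coordinates are 1-based. Groups came from the sample titles. Differences were set against the SD of the pair at 65 °C and 5 min. The clusters, the rule and all comparisons were chosen with earlier results of these data known.

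Clusters named are the 10 with most fresh frozen peaks (of 6 tied at 20 peaks, the longest was taken), the 3 of lowest and of highest mean cover in the pair, the 3 of highest H3K4me2 cover and the 3 with the lowest share of peaks met over the 5 long lists. Planned gene and marker lists were not run, because no annotation or sequence of mm9 was used here. Stitching, cover and overlap were tested on simulated data. Alternatives changed the stitching gap, peak minimum, score minimum, merging, list length, overlap and libraries used. Computations used Python 3.11.15, numpy 2.4.6, scipy 1.17.1 and matplotlib 3.10.9.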

Additional observations from a re-analysis of the deposited data

Results flagged for a closer look

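Sonication time went with cluster cover in opposite directions at the 2 temperatures. The median covered share with 40 min differed from that with 5 min by 16.6 points at 50 °C and by −3.63 points at 65 °C. The bases covered by the whole lists changed in the same directions. No test set one effect against the other, because single libraries stood for all conditions but 65 °C with 5 min, so this contrast was not tested.

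The marks differed in where they met fresh frozen peaks. The share met in clusters minus that outside ran from 14 points at 50 °C and 5 min to 17 points at 65 °C and 40 min for H3K27Ac, and was −8.88 points for H3K4me2. This difference was not tested either, with 1 H3K4me2 library made by another protocol, so mark and protocol cannot be told apart.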

How the results depend on the processing

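Apart from the peak number ratio to fresh frozen, which fell below 1 in 4 settings, none of the 9 quantities recomputed changed direction. These were the number of clusters, cover at 65 °C and 5 min and of H3K4me2, both peak number ratios, the pair's difference in peaks met and 3 differences between conditions. Other values were not recomputed. A value was taken as moved when it changed by more than the SD of the pair, or a count by more than 1.5 times. The number of clusters was 54 and 1233 with stitching gaps of 5000 and 20000 bp, 1484 and 336 with minimums of 6 and 10 peaks, and 159 with peaks merged within 500 bp. With the gap of 5000 bp, cover at 65 °C and 5 min was 61.4%, the peak number ratio to fresh frozen 0.727, the difference in peaks met 17.2 points, the sonication difference at 50 °C 36.6 points, the temperature difference at 5 min 38.2 points, median H3K4me2 cover 0% and the peak ratio of 40 to 5 min at 65 °C 1.35. With 20000 bp these were 19.8%, 1.17, 13.99, 10.3 and 11.9 points, 0.491% and 1.19.

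Merging gave cover of 33.2%, peak ratios of 0.902 and 1.04, a sonication difference at 50 °C of 19.2 points and H3K4me2 cover of 0.381%. The 30000 highest peaks gave 26.4%, ratios of 0.964 and 1.16, 10.9 points for peaks met, 12.1 points for sonication and 16.2 for temperature. A −log10 q-value of at least 5 gave ratios of 0.955 and 1.22, 14.05 points for peaks met, 19.5 for sonication, 21.3 for temperature and H3K4me2 cover of 0%. Minimums of 6 and 10 peaks gave ratios of 1.06 and 1.15, and 6 peaks H3K4me2 cover of 0.217%. An overlap of 50% of the fresh frozen peak gave 17.3 points. Closing gaps of up to 76 bp, chosen after seeing the data like the ratio of 40 to 5 min itself, gave 1.06 for that ratio. The causes of these shifts were not tested. At 65 °C the sonication difference ranged from −5.08 to −2.18 points without either library of the pair. No paired analysis was possible because only 65 °C with 5 min has more than 1 replicate.

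Beyond the pair, each condition rests on 1 library of unknown depth, lists differ in length, and tissue, fixation, protocol and animal cannot be told apart between fresh frozen and FFPE liver.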
